A study of Mus musculus with 2 samples.

Results

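Of the 84591 nuclear peaks of open chromatin found in sorted basal cells of mouse skin epidermis, 11445 (13.5%) lay more than 50 kb from the nearest end of every protein-coding gene and overlapped none. These are called far peaks here, and they were chosen by position alone, without use of their signal. A further 23491 peaks were intergenic but closer to a gene, and 49655 overlapped a gene. ATAC-seq, in which a transposase inserts adapters where DNA is accessible, was run on 1 library of the basal lineage ablation genotype and 1 library of the WT genotype (control), each from 50000 cells. Both were sorted for high α6 integrin, for absence of CD34 and Lrig1, and for the YFP, GFP and RFP reporters of K14 tracing, so the cells compared are the reporter-marked ones. The agent of ablation, the time after it, the age of the animals and how many were pooled could not be read from the labels. Per the series' design text, the comparison asks what chromatin changes go with clonal expansion and tissue fluidity. In bulk libraries, a site open in fewer cells and a site less open in each cell cannot be told apart.

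Far peaks are candidates for distal regulatory elements such as enhancers, which are bound by transcription factors and act on promoters over long distances through looping of the chromatin. Genes that control development and cell identity are known for long flanks without other genes that hold many such elements. The factor that opens a site, and the gene it acts on, cannot be read from accessibility, and a flanking gene named below is a neighbour only.

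As each group has 1 library, the spread between animals is unknown, and no comparison of the conditions carries a test or a p-value. The exact 95% intervals given cover counting error only. Values are normalized reads per peak, the deposited unit, in which 1 read is worth 0.907 in ablation and 0.706 in control, and a count of 0 allows up to 2.72 normalized reads in ablation and 2.12 in control. Nuclear peaks held 12463908 reads in ablation and 17056996 in control. As a check of the labelled cells, all 10 basal epidermis markers had a peak on them or within 1 kb, with summed signals of 16160 in ablation and 17230 in control, as had 7 of 10 suprabasal markers (3360 in ablation and 3902 in control) and 6 of 6 hair follicle bulge markers (4377 in ablation and 4039 in control). Of T cell markers 3 of 7 had one (385 in ablation and 430 in control), and of fibroblast markers 5 of 8 (542 in ablation and 492 in control). Endothelial markers had a peak in 6 of 8 genes (3147 in ablation and 2971 in control), melanocyte markers in 6 of 8 (2961 in ablation and 3272 in control), and Langerhans and myeloid markers in 7 of 8 (892 in ablation and 948 in control). The mitochondrial genome took 31.2% of the reads in peaks in ablation and 7.31% in control. The part of these values in the results below was not tested.

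Some far peaks sat on genes that make no protein. In all, 2881 far peaks (25.2%) overlapped a noncoding gene, for 2754 of them a lncRNA (a long RNA that is not translated), and 252 held the start of one. The following windows, from 250 bases before a lncRNA start through the first 50 transcribed bases, are RefSeq sequences of build GRCm38.p6, written 5′ to 3′ on the strand of the lncRNA. They show the start inside a strong far peak, inside a peak higher in ablation and inside a peak lower in ablation. Capitals mark TGANTCA (N is any base), the site of AP-1, the FOS and JUN family of factors, and GGGCGG, the GC box of Sp1, both searched on both strands, so that a GC box on the other strand reads CCGCCC.
D130051D11Rik: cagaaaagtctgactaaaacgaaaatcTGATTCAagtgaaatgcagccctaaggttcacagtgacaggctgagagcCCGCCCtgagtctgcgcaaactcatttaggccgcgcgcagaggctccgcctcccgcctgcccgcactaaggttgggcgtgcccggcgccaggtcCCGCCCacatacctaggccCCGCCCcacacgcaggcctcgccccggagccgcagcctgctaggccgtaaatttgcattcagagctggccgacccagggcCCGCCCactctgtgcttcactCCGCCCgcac
4930542M03Rik: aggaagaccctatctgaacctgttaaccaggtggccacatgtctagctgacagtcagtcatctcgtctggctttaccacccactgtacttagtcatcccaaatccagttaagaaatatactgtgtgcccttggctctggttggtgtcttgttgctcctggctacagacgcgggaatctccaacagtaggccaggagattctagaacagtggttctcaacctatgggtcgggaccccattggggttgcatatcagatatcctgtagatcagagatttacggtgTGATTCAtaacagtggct
Gm12589: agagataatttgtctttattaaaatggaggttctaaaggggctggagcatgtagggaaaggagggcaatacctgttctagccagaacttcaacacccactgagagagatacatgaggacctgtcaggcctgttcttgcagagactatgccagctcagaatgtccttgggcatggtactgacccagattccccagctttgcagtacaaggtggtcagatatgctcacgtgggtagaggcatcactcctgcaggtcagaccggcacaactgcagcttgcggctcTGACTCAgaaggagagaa

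The first window, at chr15:85634346-85634645 on the plus strand, lies between Wnt7b, a Wnt ligand, and Ppara, a nuclear receptor for fatty acids. Its lncRNA start is in a far peak of 973 normalized reads in ablation and 1136 in control. The window holds 1 AP-1 motif and 5 GC boxes. The peak begins inside the window, at chr15:85634390, and the AP-1 motif lies before that position, outside the peak. The second, at chr17:45881403-45881702 on the minus strand, is 135 kb from Vegfa, the vascular growth factor, in a far peak of 79.8 in ablation and 36.7 in control (2.18-fold, 1.53 to 3.13). The last window, at chr11:121777499-121777798 on the plus strand, lies between Metrnl, a secreted factor, at 60.0 kb and Ptchd3 at 52.1 kb, in a far peak of 174 in ablation and 339 in control (0.513-fold, 0.432 to 0.608). The last pair hold 1 AP-1 motif each and no GC box. Windows at the starts of A230028O05Rik and Gm32513, also inside strong far peaks, hold neither motif and are not printed. The windows printed are thus examples and do not show how common the motifs are.

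lncRNA starts inside far peaks held TGANTCA, the loose AP-1 motif, more often, and the GC box less often, than starts inside other peaks. TGANTCA was present in 19.6% of 286 windows at lncRNA starts inside far peaks, against 9.12% of 1929 windows at lncRNA starts inside other peaks, 9.04% of lncRNA starts in no peak, 5.24% of protein-coding starts inside peaks and 7.81% of all 32817 windows. GGGCGG was present in 19.2% of windows inside far peaks, against 54.5% at lncRNA starts inside other peaks, 8.35% of lncRNA starts in no peak, 69.2% of protein-coding starts inside peaks and 35.6% of all windows. Median GC content was 50.5% inside far peaks and 60.0% inside other peaks. ATTTGCAT, the octamer motif of POU factors, was present in 3.50% of the windows inside far peaks and 1.74% of all windows; CCCTC, a short part of the CTCF site, in 60.5% inside far peaks and 66.0% of all; and the longer CTCF core in 0 windows inside far peaks and 0.0122% of all windows. A match is a description of letters in the window, not a bound site, and windows of genes with several starts overlap. A window can also reach outside the peak that holds its start. The 252 far peaks with a lncRNA start were stronger than the remainder, with a median mean signal of 99.0 against 36.6 normalized reads, and of the 238 that passed the signal filter described below, 12 (5.04%) were 2-fold or more higher in ablation and 3 (1.26%) were 2-fold or more lower, near the 4.48% and 1.88% of all tested nuclear peaks.

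Several miRNA genes of known importance in skin were among the neighbours of far peaks. miRNAs are short RNAs that repress messages matching their seed. Within 10 kb of 83 far peaks lay 55 miRNA genes. The mature sequences of 6, from RefSeq, are given with the seed (bases 2 to 8) in capitals.
mmu-miR-205-5p: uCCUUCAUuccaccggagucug
mmu-let-7c-5p: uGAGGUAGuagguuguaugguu
mmu-miR-125b-5p: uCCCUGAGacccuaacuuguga
mmu-miR-29a-3p: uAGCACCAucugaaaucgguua
mmu-miR-29b-3p: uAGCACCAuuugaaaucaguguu
mmu-miR-17-5p: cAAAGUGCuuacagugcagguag

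The 2 miR-29 sequences share a seed and the other 4 do not. miR-205, an epithelial miRNA needed for growth of mouse skin progenitors, is encoded at chr1:193507503-193507524 in the stretch between Camk1g and Plxna2, and 7 far peaks lay within 10 kb of it. The nearest of them, at chr1:193508250-193508668, is 720 bp away and had 226 normalized reads in ablation and 305 in control. The strongest far peak within 10 kb of Mir125b-2, whose miRNA restrains differentiation of mouse skin stem cells, had 465 in ablation and 534 in control. let-7c is encoded in the same stretch, between Usp25 and Cxadr, and a far peak 2552 bp from its gene had 244 in ablation and 220 in control. The strongest far peak near Mir29a and Mir29b-1, whose miRNAs target collagen messages, had 385 in ablation and 379 in control. The far peak 2163 bp from Mir17, the leading member of a cluster known to drive proliferation, had 479 in ablation and 538 in control. Of the 18 far peaks within 10 kb of these 6 genes, all tested, 0 were at least 2-fold higher and 1 was at least 2-fold lower: a weak peak 2706 bp from Mir125b-2, with 5.44 in ablation and 26.1 in control. Among all tested nuclear peaks 4.48% were higher and 1.88% lower. With 18 peaks, the counts cannot be set apart from these shares.

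Far peaks were present on every chromosome. The autosomes held between 156 (chromosome 19) and 1115 (chromosome 13), the X chromosome 387 and the Y chromosome 13. To set these counts against the room available, the far peaks between genes (39 lie beyond the outermost gene of a chromosome) were divided by the length of sequence more than 50 kb from a protein-coding gene on both sides, 976 Mb in all, which gave 11.7 far peaks per Mb. Across the 19 autosomes the median was 12.0 per Mb and the lowest value 8.96, on chromosome 14. Chromosome 13 stood apart with 24.8 per Mb, against 16.5 for the next, chromosome 2, and far peaks made up 27.3% of its peaks. This was spread over the chromosome, where 100 stretches between genes held a far peak. Of these, 14 held at least 30 far peaks each, 519 together. The X chromosome had 5.14 per Mb, the lowest but for the Y.

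**Figure D1:**
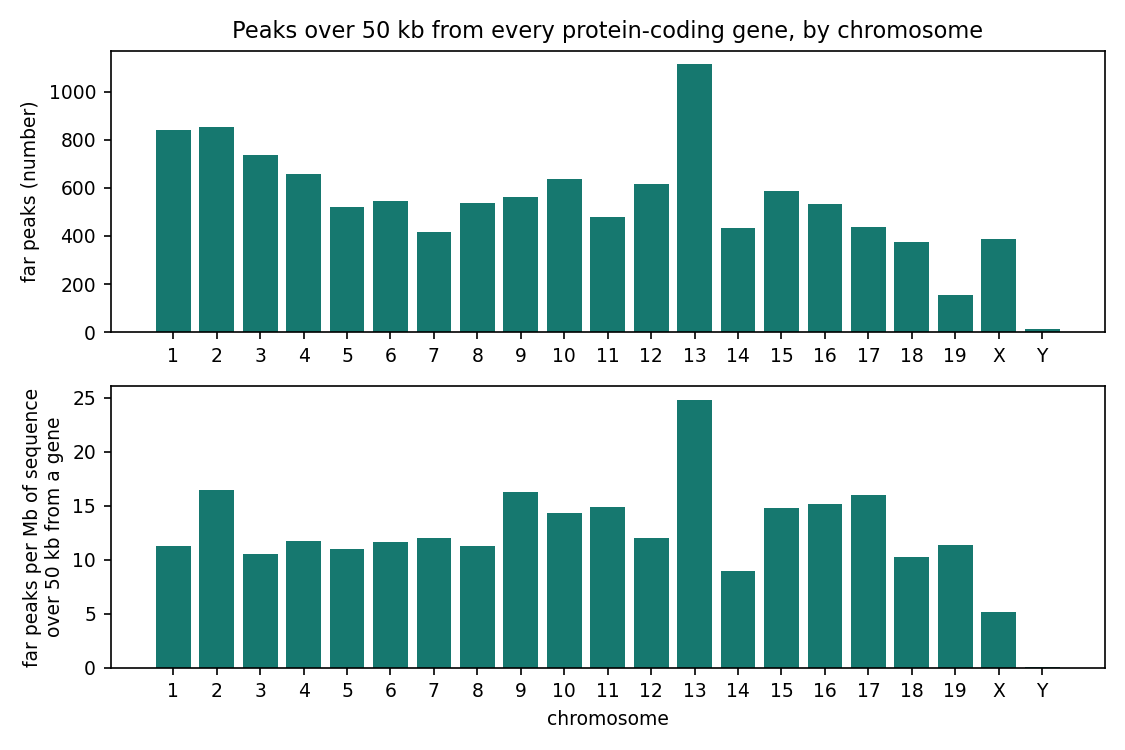
Number of far peaks (upper) and far peaks per Mb of sequence more than 50 kb from a protein-coding gene (lower) for each chromosome. Chromosome 13 is highest in both, with 1115 far peaks and 24.8 per Mb, and the X chromosome has 5.14 per Mb.

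The distribution over the genome was uneven within chromosomes too. Of 2946 stretches between neighbouring protein-coding genes that were longer than 100 kb, and so had room for a far peak, 1602 (54.4%) held at least 1, with a median of 3 among those; 428 held exactly 1. The 161 richest stretches held 43.4% of all far peaks. Stretches with a far peak had a median length of 301 kb and those without one 171 kb. On the autosomes, the longest without any far peak was 3442 kb long. Of the 272 such stretches on the X chromosome, 180 held no far peak.

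The richest stretch, between Klf4, a transcription factor required for the skin barrier, and Actl7b, a testis actin-like gene, held 99 far peaks in 1208 kb. Its peaks summed to 11092 normalized reads in ablation and 13040 in control (0.851-fold, 0.831 to 0.870). Of its 93 tested peaks, 30 were above and 63 at or below the control value. At least 2-fold higher were 2 and at least 2-fold lower were 2, so the lower sum was spread over many peaks. Among all tested nuclear peaks, 4.48% were at least 2-fold higher and 1.88% at least 2-fold lower, with a median log2 ratio of -0.01. Other scalings of the libraries moved the median log2 ratio of all tested peaks by between -0.34 and 0.14, so ratios of sums closer to 1 than these shifts can change side with the scaling.

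**Figure D2:**
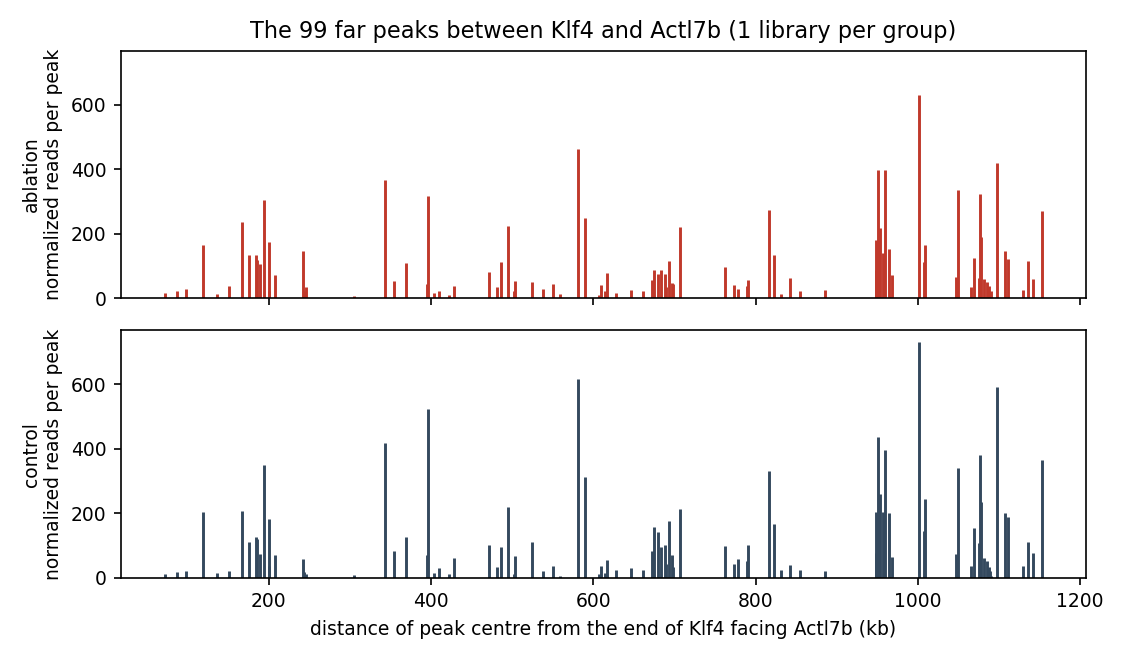
Normalized reads of each of the 99 far peaks between Klf4 and Actl7b in ablation (upper, red) and control (lower, dark), against the distance of the peak's centre from the end of Klf4 in kb; each line is 1 peak in 1 library. The same peaks are high in both libraries, and 63 of the 93 tested are at or below the control value in ablation.

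The stretch between Celf2 and Gata3, a transcription factor of epidermal and hair lineages, held 86 far peaks, with 7563 in ablation and 8087 in control (0.935-fold, 0.909 to 0.962). The stretch between Slc4a3 and Epha4, an ephrin receptor, held 69, with 4112 in ablation and 4171 in control (0.986-fold, 0.948 to 1.02). The stretch of let-7c and miR-125b between Usp25 and Cxadr, a junctional adhesion protein, held 66, with 4194 in ablation and 4464 in control. That between A1bg and the growth regulator Myc held 58, with 7117 in ablation and 8369 in control (0.850-fold, 0.826 to 0.875). Klf4 and Myc thus had the lowest ratios among these 5, and at Epha4 the interval of the ratio included equal signal.

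The next were the stretch from the Notch ligand gene Jag1 to Btbd3, with 54 far peaks and a ratio of 1.04, that from Rragc to the POU factor gene Pou3f1 with 53 and a ratio of 1.01, and that from Thap1 to Zfp703, a zinc-finger transcriptional regulator, with 51 and a ratio of 0.894. The stretch from Cd83 to Jarid2, a Polycomb complex subunit, had 49 and a ratio of 0.885. The stretch from Maf, a differentiation factor of human epidermis, to Dynlrb2 had 46 and a ratio of 0.983. Of the 10 richest stretches, none reached a 2-fold difference in its sum.

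Far peaks often stood close together, but were more widely spaced than intergenic peaks near genes. The median gap between neighbouring far peaks of 1 stretch was 8.12 kb, against 4.78 kb among intergenic peaks within 50 kb of a gene. Joined at gaps of at most 10 kb, far peaks formed 5994 clusters; 3646 far peaks (31.9%) stood alone, and the 1214 clusters of at least 3 held 48.3% of them. There were 55 clusters of 10 or more. The largest held 21 far peaks in 88.3 kb between Tut7 and Gas1, a Hedgehog co-receptor, with 1936 normalized reads in ablation and 2126 in control. Next came 19 far peaks between Cebpb, a factor of keratinocyte differentiation, and Ptpn1 (4462 in ablation and 5079 in control), 19 between Tmem45b and the homeobox gene Barx2 (3895 in ablation and 4537 in control), 19 between Ywhaz and Zfp706 (2981 in ablation and 3612 in control) and 18 between Thap1 and Zfp703 (4074 in ablation and 4363 in control). As deposited, all 5 summed lower in ablation, with ratios of 0.825 to 0.934. In the Ywhaz cluster 17 of 18 tested peaks were at or below the control value, beside a median log2 ratio of -0.01 over all tested nuclear peaks.

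The gene lists describe which genes border these stretches. Far peaks had 2831 protein-coding genes as nearest neighbour on a side. Of all 4708 genes that border a stretch longer than 100 kb, 2821 (59.9%) flanked a far peak, with a median of 1.00 far peaks per bordering gene and 11.7 per Mb. Of 29 bordering genes for epidermal transcription factors, 28 did, with a median of 20 far peaks and 46.8 per Mb. The most were counted at Klf4 (101), Gata3 (86) and Klf6 (65), a Krüppel-like factor. Among 16 bordering genes of the EGF and MAPK pathway all flanked a far peak (median 13.5, 36.2 per Mb), led by the feedback inhibitors Spred2 (38), Dusp6 (27) and Spry2 (26). Among 16 of the TGF-beta and BMP pathway 15 did (median 14.5, 32.0 per Mb), led by Bmp7 (31) and Bmp2 (23), both BMP ligands, and Fst (23), an activin antagonist. All 13 bordering growth control genes did (38.7 per Mb), led by Myc (90), the growth factor receptor gene Fgfr2 (46) and the D cyclin gene Ccnd1 (17).

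The remaining families and pathways had medians of at most 5.00 far peaks per bordering gene. Hair follicle regulators had far peaks at 13 of 16 bordering genes (median 5.00, 36.7 per Mb), with Sox9 (79), Gli2 (22) and Lef1 (22) first. Developmental patterning factors had them at 33 of 40 (median 5.00, 13.9 per Mb), with Meis1 (47), Tbx3 (35) and Msx2 (34) first, and Wnt pathway genes at 13 of 16 (median 3.00, 15.3 per Mb), with Wnt4 (15), Fzd1 (14) and Wnt7b (11) first. Among AP-1 subunit genes 3 of 4 bordering genes did, nearly all at Jun (40). Cadherin, guidance and adhesion genes, many of them active in neurons, flanked a far peak at 46 of 51, but their flanks are long and held 3.37 per Mb. Olfactory and vomeronasal receptor genes did at 13 of 104 bordering genes (3.68 per Mb).

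Far peaks were weaker and shorter than the remaining peaks. Their median signal was 39.0 normalized reads in ablation and 35.3 in control, against 60.8 in ablation and 57.2 in control for the other peaks and 210 in ablation and 216 in control for peaks within 1 kb of a gene end. Their median length was 506 bp against 559 bp. In reads, the median far peak had 43 in ablation and 50 in control. Far peaks took 11.4% of nuclear reads in ablation and 11.8% in control, but 4 peaks carried 29.8% of far reads in ablation and 33.6% in control; without them, an alternative chosen after seeing the data, the shares were 8.32% and 8.14%.

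The strongest was chr17:39843032-39846811, between the pheromone genes Esp15 and Esp38, with 291047 normalized reads in ablation and 360786 in control; the gene table lists there Rn18s-rs5, a pseudogene related to 18S ribosomal RNA. The neighbouring peak chr17:39847438-39848752 had 81292 in ablation and 97414 in control. The peaks chr11:109011646-109012117, 60.9 kb from the Wnt feedback gene Axin2, and chr3:5860348-5860824, 282 kb from Pex2, followed with 7551 in ablation and 10006 in control, and 6218 in ablation and 7666 in control. All 4 were 1.20 to 1.33 times lower in ablation. No source used here gives how reads with several matches in the genome were placed, so the signal of repeated sequence is uncertain.

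The other peaks among the 10 strongest held between 982 and 1615 normalized reads in either library. The first, 72.3 kb from Irf2bp2, a transcriptional co-regulator, had 1414 in ablation and 1401 in control. The one 230 kb from Zfp703 had 1112 in ablation and 1615 in control (0.688-fold, 0.642 to 0.738). The one 109 kb from Jun, the AP-1 subunit gene, on the antisense lncRNA Junos, had 1116 in ablation and 1315 in control. Those with Tbc1d1, Atxn1 and Lrrc4c as nearest gene had ratios of 0.811, 0.774 and 0.744. Of the 10 strongest far peaks, 9 were thus lower in ablation, all by less than 2-fold. Strong peaks in general were: in the strongest decile of mean signal, 86.2% of 356 far peaks and 85.5% of 7259 other peaks were below the control value.

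To compare the libraries peak by peak, log2(ablation / control) was taken with a pseudocount of 1 for peaks with a mean signal of at least 14 normalized reads, which kept 9665 far peaks; the other 1780 were under this filter. Of those tested, 712 (7.37%, 6.85 to 7.91) were at least 2-fold higher in ablation, beside 4.48% of all tested nuclear peaks. At least 2-fold lower were 294 (3.04%, 2.71 to 3.40), beside 1.88% of all tested peaks. The median log2 ratio was 0.03 for far peaks and -0.02 for the others, and 71.4% of far peaks were within 1.5-fold. The 2-fold peaks were thus more frequent among far peaks in both directions while the centre was alike. Of the 2-fold far peaks, 70.8% were higher in ablation, a split that depends on scaling: after division by library totals that include the mitochondrial peaks, 323 were higher and 806 lower (28.6% higher), and the median of all tested peaks moved by -0.34.

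Weak peaks pass 2-fold more easily, so the other peaks were reweighted to the signal deciles of the far peaks. At like signal, 5.21% of them were at least 2-fold higher and 2.18% at least 2-fold lower. Far peaks exceeded this by 2.16 percentage points for higher and 0.858 points for lower, and the difference in the median log2 ratio was 0.00. Set against intergenic peaks within 50 kb only, the excesses were 1.93 and 0.885 points. The share of far peaks was above that of the others in 9 of 10 deciles for either direction. In the weakest decile 18% of far and 13.4% of other peaks were higher; in the strongest, no far peak of 356 passed 2-fold either way (exact interval up to 1.03%).

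**Figure D3:**
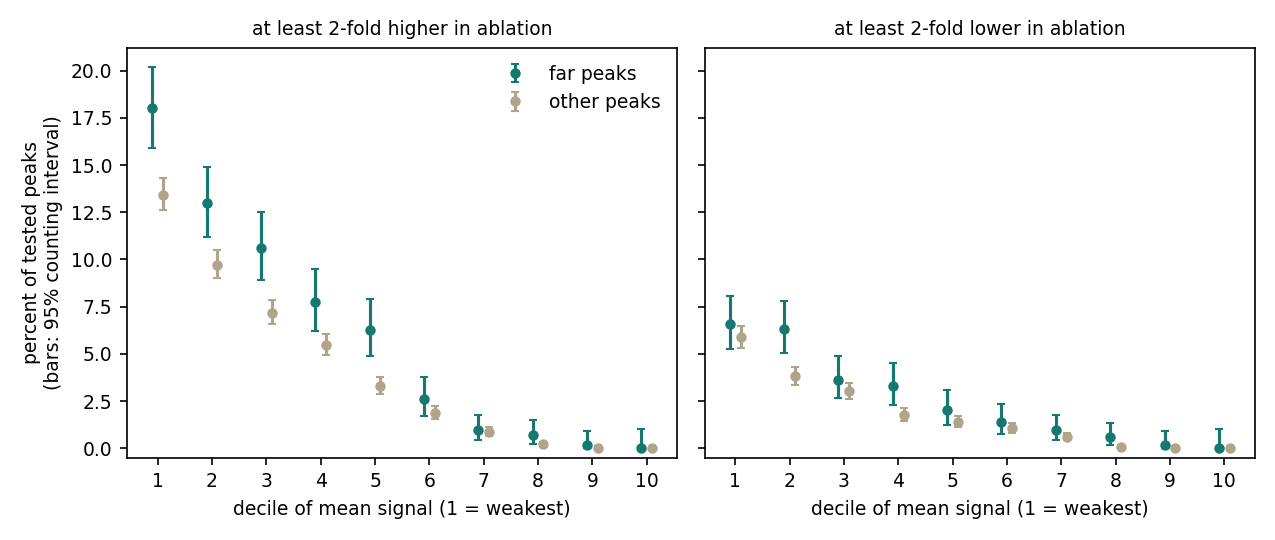
Percent of tested peaks at least 2-fold higher (left) and at least 2-fold lower (right) in ablation by decile of mean signal, for far peaks (green) and all other peaks (tan), with exact 95% counting intervals. Far peaks are above the others in 9 of 10 deciles in both panels, by 18% against 13.4% in the weakest decile on the left.

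The deposited table lists its peaks in 3 runs of rows, each in genome order, for which no rule is stated, and the 2-fold far peaks were unequally spread over them. The first run held 370 of the 712 higher far peaks and 1 of the lower ones, among 900 tested far peaks. The second held 129 of the 294 lower far peaks and 2 of the higher ones, among 573 tested. In these runs the direction thus nearly followed the run. Far peaks made up 17.0% of the peaks of the first run, 17.5% of the second and 12.5% of the last. In the largest run, the last, 4.15% of 8192 tested far peaks were higher and 2.0% lower. Of the other peaks of that run, 2.20% were higher and 0.931% lower. These shares within a run are not matched for signal. At like signal within the largest run, far peaks exceeded the others by 1.32 points for higher and 0.814 points for lower. The ordering of far above other peaks was thus present within the largest run, at lower shares. Within the first run, 41.1% of far peaks and 29.4% of other peaks were higher. As nearly all 2-fold peaks of that run were higher, these shares are a description and cannot decide on the ordering.

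The balance between higher and lower peaks differed with distance from genes. At 50 to 100 kb, 7.25% of far peaks were higher and 2.24% lower; at 100 to 250 kb, 7.89% and 3.02%; and at 250 to 500 kb, 6.86% and 3.72%. At 500 to 1000 kb, 4.75% (2.74 to 7.60) were higher and 8.90% (6.09 to 12.5) lower, and lower peaks exceeded the others at like signal by 6.27 points. Past 1000 kb only 56 peaks were tested, with 8.93% higher and 10.7% lower. The 36 lower peaks more than 500 kb from a gene lay in 26 stretches, at most 4 in any one, and 1 was on the X chromosome. They had a median of 15.0 reads in ablation and 49.5 in control. On the 2 sides of the limit, 8.53% were higher and 1.24% lower at 50 to 55 kb, and 6.86% higher and 2.04% lower at 45 to 50 kb. The peak just inside, chr2:172817033-172818009, 50003 bp from a gene and between Tfap2c and Bmp7, had 699 in ablation and 746 in control; the one just outside, chr13:69447254-69447955 at 49997 bp, had 132 in ablation and 95.3 in control.

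**Figure D4:**
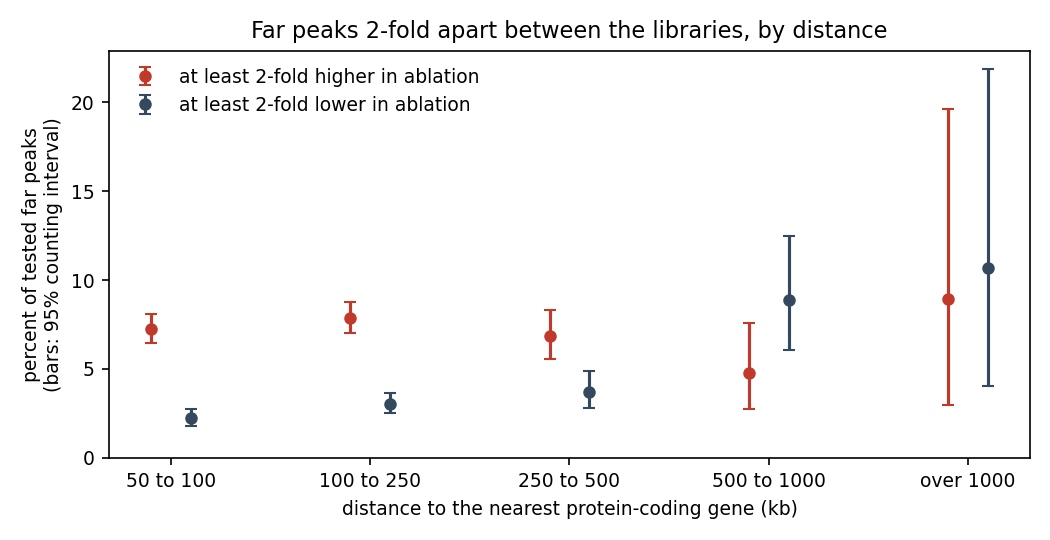
Percent of tested far peaks at least 2-fold higher (red) and at least 2-fold lower (dark) in ablation by distance to the nearest protein-coding gene, with exact 95% counting intervals. Higher peaks outnumber lower ones up to 500 kb (7.25% against 2.24% at 50 to 100 kb), and at 500 to 1000 kb 4.75% are higher and 8.90% lower.

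Far peaks that stood alone were 2-fold apart more often than those in clusters. Of solitary far peaks 9.68% were higher and 4.53% lower, an excess over other peaks at like signal of 3.19 and 1.81 points. In clusters of 10 or more, 3.15% were higher and 1.80% lower, which differed from other peaks at like signal by -0.248 and 0.345 points. Neighbouring far peaks had related ratios. Over 1556 pairs at most 2 kb apart Pearson's r of the log2 ratios was 0.45, and over 1007 pairs more than 50 kb apart it was 0.17. The median of the smallest read count of a pair also fell, from 44 to 26. The part of counting error in the fall of r was not tested. These pairs share both libraries and the correlation is a description only. On the X chromosome 4.23% of 284 tested far peaks were higher and 6.69% lower, with a median log2 ratio of -0.08; of its other tested peaks 3.00% were higher and 2.91% lower, with a median of -0.10, beside 4.48% and 1.88% of all tested peaks.

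Among far peaks of at least the median signal of tested far peaks (47.8), 4 of 4833 had gains of 4-fold or more and 0 had losses of that size. This depends on the scaling: after division by table totals, 0 were at least 4-fold higher and 3 at least 4-fold lower. The 4-fold share among other peaks of such signal is not given here, so these counts cannot be called particular to far peaks. The highest ratio was at chr9:53000788-53002121, 96.3 kb from the RNA helicase gene Ddx10, with 95.2 in ablation and 20.5 in control (4.65-fold, 3.06 to 7.28). Next was chr14:76278776-76279727, between Nufip1 and Tsc22d1, a TGF-beta-stimulated factor, with 95.2 in ablation and 21.9 in control (4.35-fold, 2.89 to 6.73). The stretch between the semaphorin gene Sema6d and the pigment gene Slc24a5 held 2 of the 10 highest, at 4.36-fold and 3.97-fold, and its 8 further tested far peaks beside either had a median log2 ratio of 1.34, so the difference there extended over the stretch.

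A far peak 53.1 kb from Btc and 155 kb from Areg, both genes for ligands of the EGF receptor, had 124 in ablation and 29.6 in control (4.19-fold, 2.95 to 6.07). The 12 other tested far peaks between these genes had a median log2 ratio of 0.50. The strongest of the highest 10, 83.0 kb from Egln3, an oxygen-sensing prolyl hydroxylase, had 319 in ablation and 101 in control (3.16-fold, 2.60 to 3.87), in a stretch whose other 42 tested peaks had a median of 0.08. A peak 347 kb from Tns3, a focal adhesion protein, had 161 in ablation and 46.6 in control (3.47-fold, 2.60 to 4.67), where the remaining 30 had a median of -0.24. The medians along the stretch were thus also above 0 at Areg and Sema6d, and near or below 0 at Egln3, where 1 further peak was at least 2-fold higher, and at Tns3, where the 2 tested peaks within 100 kb had a median of 0.76.

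The lowest ratio was at chr13:6131354-6131878, 261 kb from Klf6, with 27.2 in ablation and 98.8 in control, 3.63 times lower (0.275-fold, 0.179 to 0.411). A peak 476 kb from Tenm3, a teneurin of cell adhesion, had 22.7 in ablation and 76.2 in control, and one between Lratd1 and the pseudokinase gene Trib2 had 24.5 in ablation and 80.4 in control. One 67.0 kb from the Wnt receptor gene Fzd10 had 28.1 in ablation and 84.0 in control. The peak with the most reads among the lowest 10, 162 kb from Msx2, a homeobox gene of skin appendages, had 66.2 in ablation and 179 in control (0.371-fold, 0.282 to 0.483), and the 28 other tested far peaks of its stretch had a median log2 ratio of -0.35.

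Summed over stretches, most differences were under 2-fold. Among 315 stretches with at least 10 tested far peaks, the log2 ratio of summed signal ran between -0.48 and 1.04 with a median of -0.04. It was above 0 in 121. As deposited, the counting interval lay above equal signal in 73 and below it in 127. Sums weigh strong peaks most, and in the strongest decile 85.6% of all tested peaks were below the control value. Division by nuclear totals moved the median of all tested peaks by 0.09, so this split can change with the scaling. The extremes named here were chosen after their values were seen. The stretch from Tex29 to a predicted gene was highest, with 632 in ablation and 308 in control (2.05-fold, 1.82 to 2.32). That from Lrig3, a relative of the EGF receptor inhibitor Lrig1, to Atp23 had 844 in ablation and 524 in control (1.61-fold, 1.46 to 1.78). That from the transcription factor gene Tfap2b to Pkhd1 had 652 in ablation and 414 in control (1.57-fold, 1.41 to 1.76). In the stretch from Runx1, a factor of hair follicle stem cell growth, to Setd4, all 18 tested peaks were above the control value. Their stretch had sums of 974 in ablation and 646 in control (1.51-fold, 1.38 to 1.65). Over all tested nuclear peaks the median log2 ratio was -0.01.

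Also among the highest were the stretch from Inhba, the activin A subunit gene, to Sugct (1.54-fold) and that between Areg and Btc (1.48-fold). That from Csl to Kitl, the KIT ligand gene, followed (1.38-fold). Stretches from a predicted gene to Spin1 (1.56-fold), from Hdac4 to Ndufa10 (1.49-fold) and from a predicted gene to Flrt2 (1.49-fold) were among them too. The lowest was Msx2 to Drd1, with 2505 in ablation and 3490 in control (0.718-fold, 0.685 to 0.752). There 22 of 29 tested peaks were at or below the control value, beside the median log2 ratio of -0.01 over all tested nuclear peaks. Next were Cdh26 to a predicted gene (0.720-fold), Bod1l to a predicted gene (0.731-fold) and Pof1b to Chm (0.732-fold). The stretch from Lpp to Tprg had 1841 in ablation and 2502 in control (0.736-fold, 0.697 to 0.777). That from Eea1 to Btg1, an antiproliferative factor, had 2284 in ablation and 3080 in control (0.742-fold, 0.706 to 0.779). The medians of these 20 stretches kept their side of 0 after a loess correction for signal, between 0.25 and 0.97 for the highest 10 and between -0.62 and -0.34 for the lowest 10. As the stretches were picked as extremes and loess moved the median of all tested peaks by only 0.01, this is a weak check. Division by table totals moved that median by -0.34, a larger shift than the median log2 ratio of 0.33 from Inhba to Sugct.

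**Figure D5:**
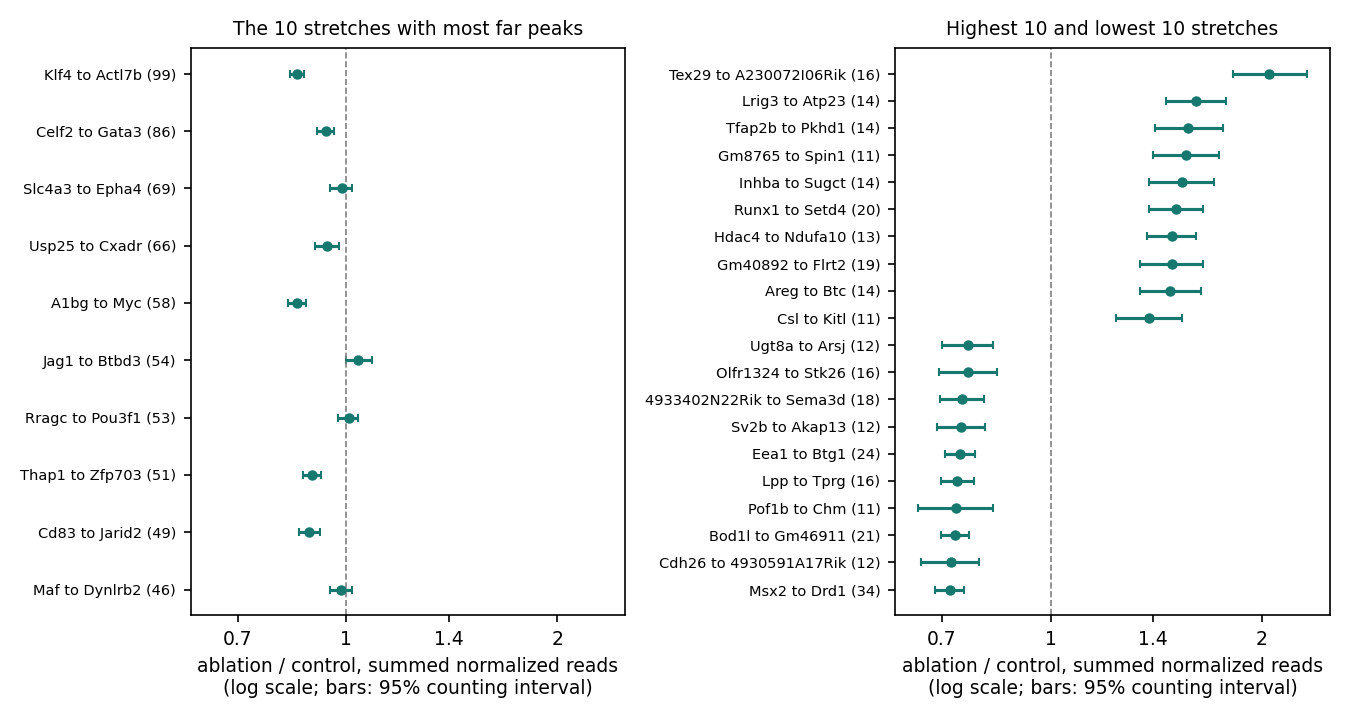
Ratio of ablation to control of summed normalized reads (log axis, with exact 95% counting intervals; dashed line, equal signal) for the 10 stretches with the most far peaks (left) and the 10 highest and 10 lowest among stretches with at least 10 tested far peaks (right); the number of far peaks stands in brackets. The richest stretches lie between 0.850 and 1.04, and the extremes between 0.718 and 2.05.

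Sums of far peaks beside genes of the lists ran in both directions. The counts of 2-fold peaks that follow stand beside 7.37% higher and 3.04% lower among tested far peaks, and 4.48% and 1.88% among all tested peaks. The 79 far peaks beside Sox9, a factor of hair follicle stem cells, summed to 8146 in ablation and 7203 in control (1.13-fold, 1.10 to 1.16, a side that division by table totals would turn), with 9 of 70 tested peaks at least 2-fold higher and 0 lower. At Lef1, a Wnt effector, 4 of 19 were higher and 0 lower (1.12-fold), and at Ccnd1 3 of 14 were higher and 0 lower (1.11-fold). The 65 beside Klf6 included 1 higher and 6 lower of 55 tested (0.903-fold), and the 34 beside Msx2 included 0 higher and 4 lower of 29. Far peaks beside Bmp2 summed to 2506 in ablation and 3104 in control (0.807-fold), those beside Jun to 4778 in ablation and 5573 in control (0.857-fold), and those beside Bmp7 to 5667 in ablation and 6599 in control (0.859-fold). At Klf4 2 of 95 tested far peaks were at least 2-fold higher and 2 lower, and at Myc 0 of 82 were higher and 3 lower.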

How the data were processed

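The authors deposited 1 table of normalized signal per peak and library (mm10), for which the submitters' processing notes name, without roles, MACS2 2.1.0.20151222, HTSeq, Bowtie2 2.3.4.2, Trimmomatic and Picard. The deposited signal is whole reads divided by 1 factor per library (100% of values whole within 0.1 read). Control and ablation columns were matched by name; the control column carries another number than its sample title. Of 116411 rows, 84594 peaks were distinct and 84591 nuclear. Whether starts count from 0 or 1 is not stated.

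Distances were measured to the ends of 21774 protein-coding genes that RefSeq places on GRCm38.p6, which mm10 follows; 113 unplaced or scaffold entries were left out. Log2 ratios used a pseudocount of 1 and the 10th percentile of mean signal as filter. With 1 library per group, 2-fold size was the criterion, without a test. Intervals are Clopper-Pearson; PCR copies are not independent molecules. Named peaks are from the 10 strongest and the 10 highest and 10 lowest ratios of at least median signal. Named stretches and clusters are the richest 10 and 5, with stretches of extreme ratio added after their values were seen. Named list genes are the 3 with the most far peaks. The members and lists were chosen with earlier results of these data known. The planned motif search in peaks needs a genome, not used here; RefSeq start windows replaced it. Alternatives covered distance, gene set, pseudocount, filter, scaling, fold, matching of signal, chromosomes, table runs and cluster joins. Scripts were tested on simulated reads. Computations used Python 3.11.15 with scipy 1.17.1, pandas 2.3.3, matplotlib 3.10.9, statsmodels 0.14.6 and numpy 2.4.6. Columns left unused numbered 0.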

Additional observations from a re-analysis of the deposited data

Results flagged for a closer look

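The mitochondrial peaks took 31.2% of the reads in peaks in the ablation library and 7.31% in the control library. They were not compared themselves, and entered the results only through the alternative division by table totals.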

How the results depend on the processing

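No paired analysis was possible because each group has 1 library, and for the same reason no replicate could be left out. Far peaks exceeded other peaks at like signal in both directions under every alternative run, by 0.693 to 2.70 percentage points for peaks higher in ablation and by 0.227 to 2.33 points for lower ones. Of 126 values under alternatives, 71 stayed within the counting interval or within 1.5 times the count and 55 moved; where the setting does not itself fix the move, the cause was not tested.

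A distance of 25 kb gave 4489 flanking genes and a median signal of 39.3; 100 kb gave 6752 far peaks, 1653 flanking genes and a median signal of 34.4, with 3.63% lower, an excess of 1.35 points for lower and a difference in medians of -0.02. Counting every gene type left 2556 far peaks with a median signal of 29.1, 8.45% higher and 4.35% lower, an excess of 1.82 points for lower. Joining clusters at 50 kb gave 2887. A pseudocount of 5 gave 4.95% higher and 1.95% lower, an excess of 1.63 points for higher.

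No filter gave 9.54% higher and 5.34% lower, an excess of 1.70 points for lower and a difference in medians of -0.03. A filter at the 25th percentile gave 4.74% and 2.11%, a median log2 ratio of 0.00 and an excess of 1.45 points for higher. Division by table totals gave 3.34% higher and 8.34% lower, a median of -0.31 and excesses of 1.19 and 2.01 points; by nuclear totals 8.98%, 2.41% and 0.12; loess 5.32%, 4.29% and -0.01; centring on strong gene-end peaks 9.81%, 2.04% and 0.17. The split between higher and lower far peaks, and the sign of their median, thus depend on the scaling.

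A fold of 1.5 gave 18% higher and 10.7% lower with excesses of 2.70 and 2.33 points, and a fold of 3 gave 1.69% and 0.517% with 0.693 and 0.227. The difference in medians was 0.02 against intergenic peaks within 50 kb and 0.01 without gene-end peaks. The largest table run alone gave 4.15% and 2.0%, a median of 0.01 and an excess of 1.32 points for higher. Without the 4 strongest far peaks, chosen after seeing the data, far reads were 8.32% of nuclear reads in ablation and 8.14% in control. A typical far peak of 43 reads in ablation and 50 in control limits what 1 peak can show, and no value here covers the spread between animals.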
